A study of Mus musculus with 30 samples.

Results

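The RNA of 10 genes of the smooth muscle contractile apparatus was followed on 30 whole-genome mouse arrays of vessel, heart, kidney and brain. The genes are Myh11, Acta2, Tagln, Cnn1, Smtn, Des, Synpo2, Myl9, Mylk and Lmod1, and every probe set (a group of oligonucleotides read as a single value) that the array annotation assigns to one of these symbols alone was taken. This gave 19 probe sets of the 45101 on the array, with 10 genes of the 18193 that have a single-symbol probe set. The RNA came from male C57BL/6 mice, 8 to 10 weeks old. Angiotensin II, the peptide hormone that constricts vessels and raises blood pressure, was given by osmotic pump for 1, 3 or 7 days at a rate of 1500 ng/kg/min, and mice of the day 0 groups received none. There were 12 heart arrays (3 per day), 8 kidney arrays (2 per day), 6 brain arrays (2 per day, with no day 1) and 4 vessel arrays (1 per day). The labels do not say which vessel was taken, whether day 0 mice carried a pump, or which organs shared a mouse. They number the arrays of heart, kidney and brain as biological replicates.

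Smooth muscle contracts when calcium and calmodulin activate myosin light chain kinase, which phosphorylates the regulatory light chain and lets smooth muscle myosin pull on actin filaments. Actin filaments end in dense bodies, joined by intermediate filaments. Many of these genes carry CArG boxes, the sites of serum response factor, which acts with its coactivator myocardin. In vessel walls the set is widely used to mark contractile smooth muscle, as opposed to the synthetic state of proliferating, matrix-making cells. Several of the genes are not confined to smooth muscle: desmin (Des) and synaptopodin 2 (Synpo2) are also made in striated muscle.

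Since most of the genes varied together between the tissues, the 250 bases before the annotated start were searched for serum response factor sites. RefSeq promoters of the GRCm38.p6 build matched 8 of the 10 genes (not Myh11 and Tagln). The 3 shown hold a match to the CArG box with at most 1 mismatch, in capitals, 5′ to 3′ on the strand of the gene.
Acta2 (chr19:34255374-34255623, minus strand): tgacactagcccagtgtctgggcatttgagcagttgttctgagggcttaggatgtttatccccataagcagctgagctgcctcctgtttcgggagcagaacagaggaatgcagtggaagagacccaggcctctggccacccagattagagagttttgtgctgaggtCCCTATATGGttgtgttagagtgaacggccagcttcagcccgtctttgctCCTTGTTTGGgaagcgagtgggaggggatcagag
Lmod1 (chr1:135324563-135324812, plus strand): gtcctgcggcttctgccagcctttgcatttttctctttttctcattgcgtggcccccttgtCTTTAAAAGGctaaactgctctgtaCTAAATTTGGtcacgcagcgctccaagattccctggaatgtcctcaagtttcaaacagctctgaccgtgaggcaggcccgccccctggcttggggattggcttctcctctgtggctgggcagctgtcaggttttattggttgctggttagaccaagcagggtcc
Myl9 (chr2:156775214-156775463, plus strand): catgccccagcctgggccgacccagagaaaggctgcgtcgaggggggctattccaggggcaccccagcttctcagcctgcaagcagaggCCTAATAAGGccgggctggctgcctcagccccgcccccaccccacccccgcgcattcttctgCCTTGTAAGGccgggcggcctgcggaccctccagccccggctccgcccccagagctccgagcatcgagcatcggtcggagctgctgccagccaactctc
The Myl9 promoter, of the regulatory light chain gene, held a match without mismatch from position -161 to -152 before the start, CCTAATAAGG, which 1.47% of 32851 promoters of this length hold on either strand. With 1 mismatch allowed, Acta2 had matches from -84 and from -34, Lmod1 from -189 and from -164, and Myl9 a further one from -99. These were 3 of 8 member promoters, against 18.6% of all promoters. GGAATG, the core of the TEAD site on both strands, was in 4 of 8 (Acta2, Lmod1, Mylk and Smtn) against 12.6% of all. CANNTG, the E box, was in 5 of 8 against 66.2%, and GGGCGG, the GC box, in 5 of 8 against 32.7%. A match is a string of letters, not a measured binding site.

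The deposited values are linear intensities, and differences are given on the log2(intensity + 16) scale, which understates changes of weak signals. The array medians lay between 35.2 and 37.8 and the 40th percentiles, used as the floor below which a value was counted as low, between 22.8 and 26.5. Cell type markers showed what the tissues held. All 10 cardiomyocyte markers lay above the floor on all vessel arrays, with a summed intensity of 20770 at day 0, 11081 at day 1, 2144 at day 3 and 19339 at day 7, against 128235 to 146018 in heart. Among them the atrial light chain Myl7 ran from 199.7 to 3930 in vessel and the ventricular light chain Myl2 from 65.1 to 142. Of 9 adipocyte markers, 8 lay above the floor on each vessel array and summed to between 52700 and 77307, and Ucp1, the uncoupling protein of brown fat, ran from 11558 to 22424. Markers of heart muscle and of fat were thus present on every vessel array. In bulk RNA, fewer smooth muscle cells and less RNA per cell cannot be told apart.

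The first question was how far the genes set vessel apart from heart, compared with limma on 16 arrays with the day as a further term. Of the 10 genes, 8 were higher in vessel with all probe sets that passed the test, Des was lower, and Synpo2 had probe sets on both sides. By probe set, 14 of 19 were higher and 3 lower at an adjusted p under 0.05. Among the 14, Acta2 1444105_at and Synpo2 1441206_at were above the floor on all 4 vessel arrays and on 0 of 12 heart arrays, so they passed the filter only through the tissue where they are high and had to differ. Of all 26482 probe sets tested, 49.6% were called, 25.5% higher and 24.1% lower, so a call alone is common and the sizes carry the description. The median over the 10 genes, by their highest-mean probe sets, was 2.25 against -0.01 over all probe sets tested. These genes were chosen as smooth muscle genes and with earlier results of these data known. The fit takes the 4 vessel arrays, 1 a day, to vary like the heart arrays.

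**Figure D1:**
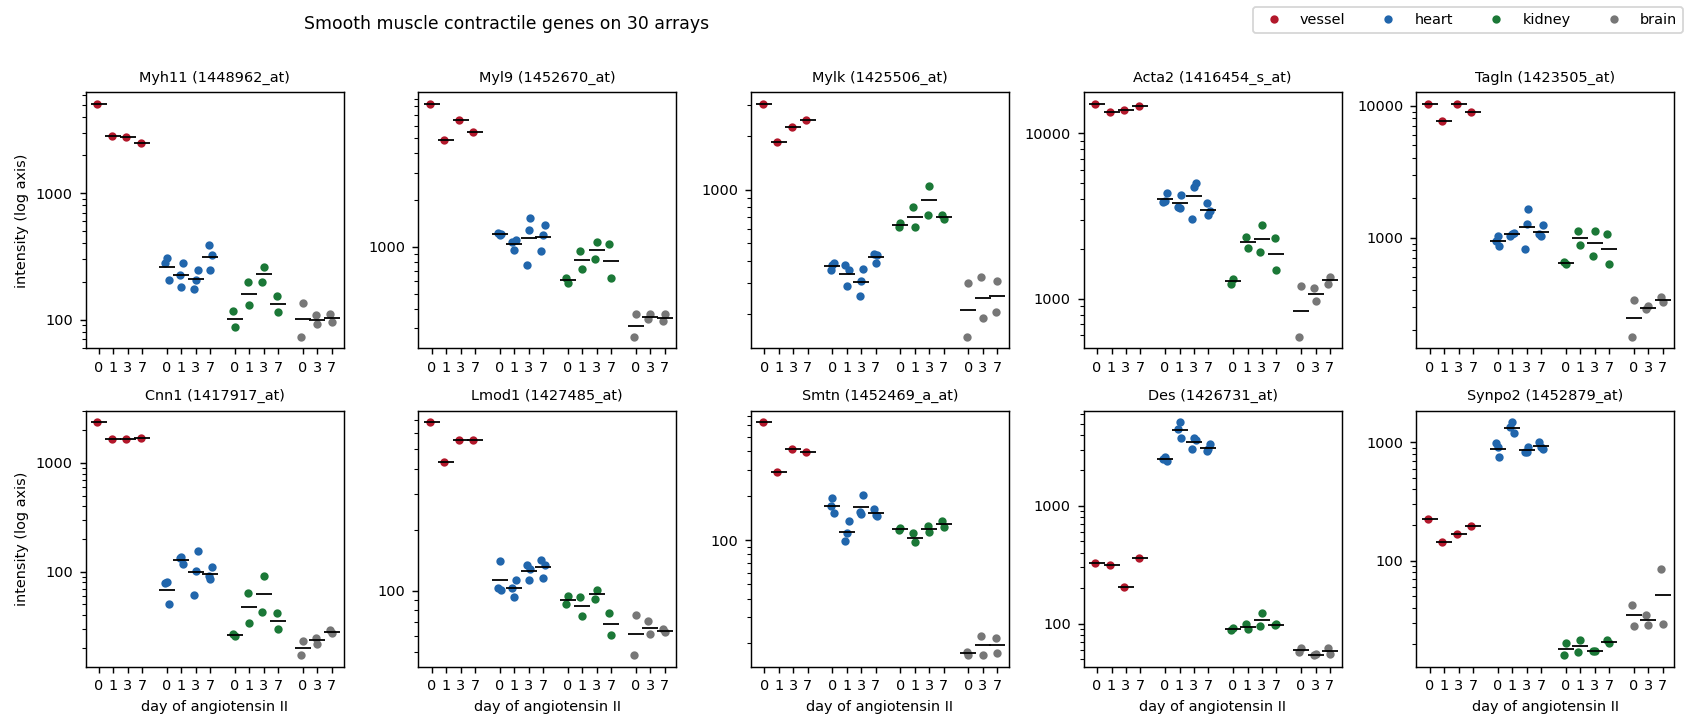
Intensity (log axis) of the highest-mean probe set of each of the 10 genes on all 30 arrays, by day of angiotensin II within vessel, heart, kidney and brain; points are arrays and bars the means taken on the log2(intensity + 16) scale. For Myh11, Myl9, Mylk, Acta2, Tagln, Cnn1, Lmod1 and Smtn the vessel arrays lie above all others, and for Des and Synpo2 the heart arrays do.

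Among the motor proteins, Myh11, the smooth muscle myosin heavy chain, had vessel intensities of 5057, 2830.4, 2766 and 2484 at days 0, 1, 3 and 7. In heart the lowest, median and highest of 12 arrays were 176, 247 and 386. All vessel arrays lay above all heart arrays, by 3.58 ± 0.17 (SE; limma adjusted p = 1.03e-10, n = 4 and 12), or 12.0-fold. The weaker Myh11 probe set 1418122_at, at 48.7 to 89.3 in vessel and 28.0 to 34.3 in heart, differed by 0.98 ± 0.09. Myl9, the regulatory light chain, measured 8287, 4885, 6552 and 5493 in vessel against 765, 1196 and 1538 (lowest, median, highest) in heart. It was higher by 2.42 ± 0.15 (limma adjusted p = 1.50e-09), with no overlap.

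Mylk, the kinase that phosphorylates this light chain, was read by 3 probe sets. The one with the highest mean, 1425506_at, measured 3021, 1842, 2247 and 2471 in vessel and 252 to 435 in heart (median 368), a difference of 2.68 ± 0.10 (limma adjusted p = 7.54e-12). Probe set 1425505_at differed by 3.16 ± 0.10 and 1425504_at, dim in heart at 22.3 to 34.9, by 1.17 ± 0.09. The 3 probe sets thus shared their direction and not their size.

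Of the thin filament genes, Acta2, smooth muscle alpha actin, measured 15048, 13418, 13925 and 14711 in vessel on its main probe set (1416454_s_at). The heart arrays ran from 3041 to 5037 with a median of 3803, so the fold was 3.70 (1.89 ± 0.11, limma adjusted p = 1.16e-09). A different Acta2 probe set, 1444105_at, measured 334, 294, 329 and 223 in vessel but 9.43 to 18.2 in heart, below the floor on all 12 heart arrays. Against that floor the vessel was at least 7.40-fold higher, more than the ratio on the main probe set. The third, 1456658_at, was above the floor on the vessel day 0 array alone, at 41.6, and its difference of 0.30 ± 0.12 did not pass (limma adjusted p = 0.0507). Both weaker Acta2 probe sets were thus below the floor in heart, where the main one was not, and the suffix of the main one marks it as able to match several transcripts.

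Tagln, or transgelin (SM22 alpha), an actin-binding protein, measured 10257, 7587, 10253 and 8937 in vessel. In heart the lowest, median and highest were 823, 1045 and 1639, a difference of 3.08 ± 0.13 (limma adjusted p = 3.09e-11), or 8.45-fold. Cnn1, calponin 1, which binds actin and slows the myosin motor, measured 2363, 1650.2, 1653 and 1700.2 in vessel. Heart ran from 50.3 to 155 with a median of 96.4. At 4.04 ± 0.19 (limma adjusted p = 1.04e-10), 16.4-fold, its difference was the largest of the highest-mean probe sets. Lmod1, leiomodin 1, which nucleates actin filaments, measured 678, 430.3, 555 and 553 in vessel and 93.3 to 142 in heart (median 115), a difference of 2.08 ± 0.10. Smtn, smoothelin, a protein of contractile smooth muscle filaments, measured 629, 290.0, 413 and 398 in vessel against 99.2 to 202 in heart (median 152), a difference of 1.38 ± 0.10. For all 4 genes no heart array reached the lowest vessel array.

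The genes of the filament anchors were different. Des, the muscle intermediate filament, measured 328, 316, 204 and 361 in vessel against 2382 to 5121 in heart (median 3212). It was lower in vessel by 3.41 on the log2 scale (SE 0.14, limma adjusted p = 2.12e-11), or 10.6-fold, and all vessel arrays lay below all heart arrays. The second Des probe set, 1426732_at, at 23.3 to 30.5 in vessel, was lower by 0.57 (SE 0.12). The lowest Des value in vessel, 204 at day 3, was on the array with the lowest sum of cardiomyocyte markers, 2144. Their part in the vessel values of Des was not tested.

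The 4 probe sets of Synpo2, an actin-binding protein of the Z-disc and dense body, split by tissue. On 1452879_at, the highest-mean one, heart ran from 749.6 to 1473 with a median of 917, and vessel measured 223, 145, 169 and 198, lower by 2.33 (SE 0.14, limma adjusted p = 9.60e-10). On 1435399_at the order was turned, with vessel at 826, 397, 279 and 209 and heart at 99.2 to 181, higher in vessel by 1.40 ± 0.19 (limma adjusted p = 1.34e-05). Probe set 1441206_at was above the floor in vessel, at 35.6 to 67.4, and below it on all heart arrays, so at least 1.59-fold higher in vessel. Probe set 1450828_at, at 28.5 to 39.0 in vessel and 25.8 to 45.5 in heart, did not pass (-0.06 ± 0.09, limma adjusted p = 0.579). With the 4 probe sets averaged, Synpo2 had no direction (0.03, limma adjusted p = 0.819), so a single value for this gene depends on which probe set is read. Which transcripts each probe set detects was not tested.

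**Figure D2:**
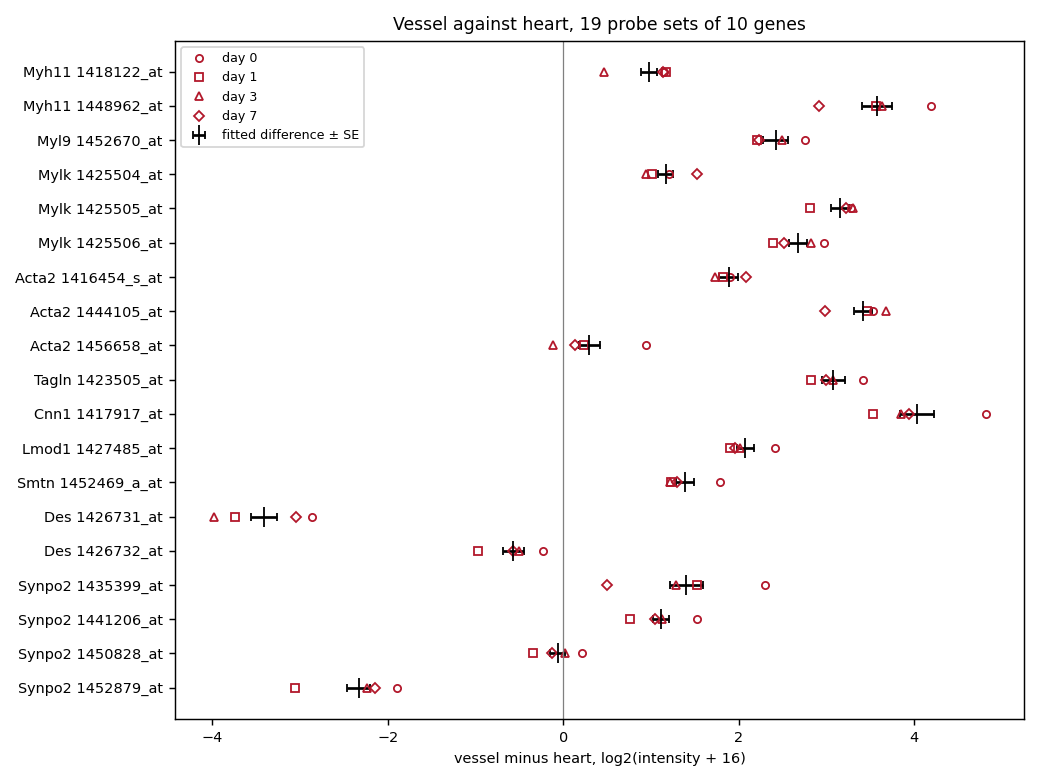
Difference between vessel and heart on the log2(intensity + 16) scale for all 19 probe sets; black marks are the limma differences with their SE over 16 arrays, and red symbols the vessel array of a day minus the mean of the 3 heart arrays of that day. Cnn1 and Myh11 lie farthest to the right at 4.04 and 3.58, Des farthest to the left at -3.41, and Synpo2 has probe sets on both sides of 0.

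**Figure D3:**
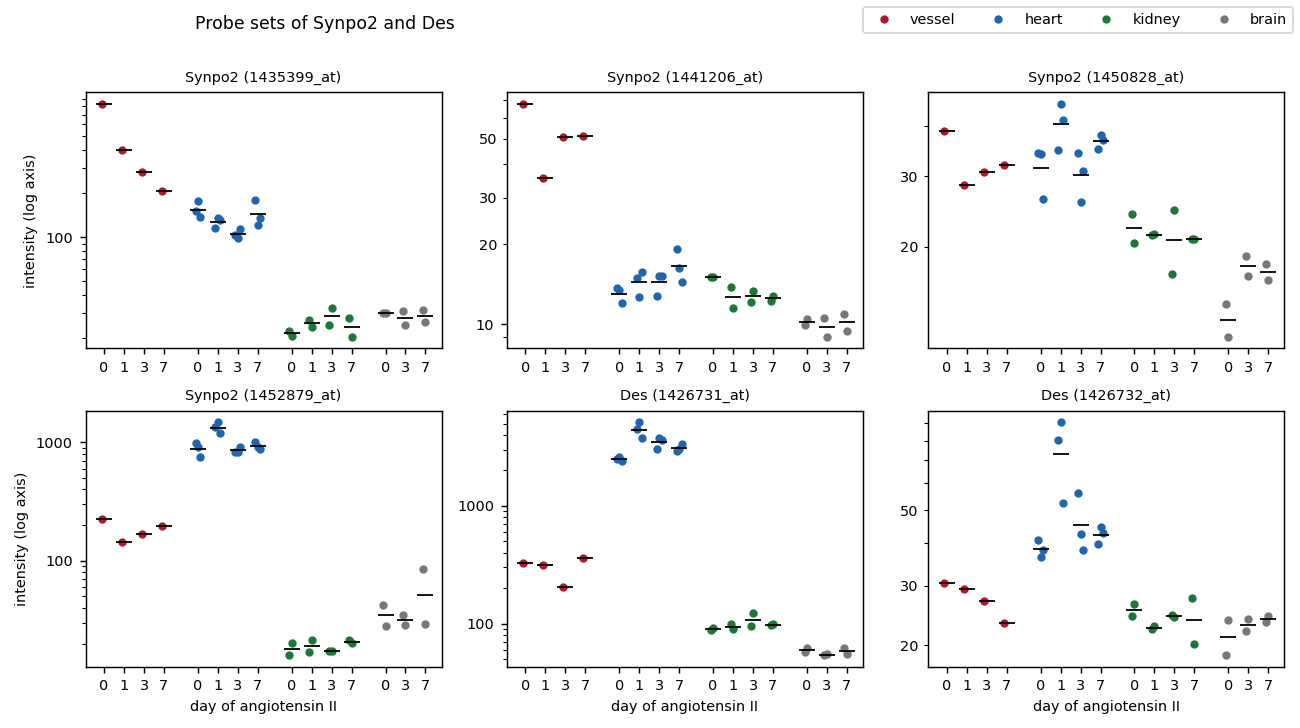
Intensity (log axis) of the 4 Synpo2 and 2 Des probe sets on all 30 arrays, by day of angiotensin II within tissue, with bars for means taken on the log2(intensity + 16) scale. Synpo2 is highest in vessel on 1435399_at (209 to 826) and in heart on 1452879_at (749.6 to 1473), and both Des probe sets have their highest values in heart at day 1.

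Against kidney and brain all 10 genes were higher in vessel on at least 1 probe set (18 of 19 probe sets in each comparison, where 55.1% and 63.5% of all probe sets tested were called, 28.3% and 32.2% higher and 26.8% and 31.3% lower). The weaker Des probe set did not pass, at 0.12 ± 0.07 against kidney and 0.15 ± 0.09 against brain (limma adjusted p = 0.160 and 0.206). Acta2 1444105_at and 1456658_at and Synpo2 1441206_at were above the floor on no kidney or brain array. Nor was Synpo2 1452879_at on any kidney array, or Smtn, Myh11 1418122_at and Synpo2 1450828_at on any brain array. So these passed the filter only through vessel, and those above the floor on all 4 vessel arrays had to differ. Acta2 1456658_at, above the floor on 1 vessel array, did not have to, and had the least firm calls (limma adjusted p = 0.0248 and 0.0438). Against kidney its call was lost with the replicate block (0.132) and without the vessel array of day 1 (0.0775), and against brain with no filter (0.0599), 64 added (0.0774), the block (0.149) and 6 of 8 arrays left out. The difference from kidney was 5.0 ± 0.23 for Cnn1 and 4.26 ± 0.26 for Myh11, and that from brain was 5.58 ± 0.15 and 4.81 ± 0.23. For Smtn, at 16.6 to 22.5 in brain, vessel was at least 10.9-fold higher, and for Synpo2 1452879_at vessel was at least 4.93-fold higher than kidney.

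On the highest-mean probe sets the order was vessel, heart, kidney, brain for Myh11, Acta2, Tagln, Cnn1, Smtn, Myl9 and Lmod1. For Des it was heart, vessel, kidney, brain, for Synpo2 heart, vessel, brain, kidney, and for Mylk vessel, kidney, heart, brain. Mylk was the member with more RNA in kidney, at 618 to 1054 (median 701) on 8 arrays, than in heart, by 0.99 ± 0.10 (limma adjusted p = 2.03e-08), and its other probe sets lay the same way. Of 16 member probe sets tested between heart and kidney, 13 were higher in heart and the 3 of Mylk lower, where 75.6% of all were called, 40.8% higher and 34.8% lower. Of 16 between heart and brain 14 were higher in heart and none lower (82.6% of all called, 44.5% higher and 38.1% lower). Of 14 between kidney and brain 11 were higher in kidney and 1 lower, Synpo2 1452879_at (76.7% of all called, 41.2% higher and 35.4% lower). All neighbours in the orders above differed at an adjusted p under 0.05 by limma. Smtn was above the floor on no brain array and Synpo2 1452879_at on no kidney array. So their steps to these tissues passed the filter only through the higher tissue and had to differ. The same holds between heart and kidney for that Synpo2 probe set, and between heart and brain for Smtn, Myh11 1418122_at and Synpo2 1450828_at. The least firm step was Myh11 between kidney (87.2 to 259, median 141) and brain (73.3 to 136, median 102), at 0.47 ± 0.19 (limma adjusted p = 0.0406), where the arrays overlapped. It was lost with the replicate block (limma adjusted p = 0.0702), with no filter (0.0551) and with 8 of 12 arrays left out in turn, for instance the second kidney array of day 3 (0.35, limma adjusted p = 0.0973). The step for Cnn1 (0.49 ± 0.17) was lost without the second brain array of day 3 (limma adjusted p = 0.0510), and that for Lmod1 (0.34 ± 0.10) without the kidney arrays that carry adrenal markers (limma adjusted p = 0.0762).

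How the genes moved with angiotensin II in vessel can only be described, since each time has 1 array and no test. On the highest-mean probe sets all 10 genes were lower than day 0 at day 1 and at day 3, and 9 at day 7, Des being the exception. The median difference was -0.60, -0.40 and -0.29 at days 1, 3 and 7, against 0.04, -0.0011 and 0.0019 over all probe sets tested. All of these differences share the day 0 array. Past 2-fold at day 1 were Smtn (-1.08) and Synpo2 on 1435399_at (-1.03). At day 3 they were Synpo2 on 1435399_at (-1.51) and the weak Acta2 probe set 1456658_at. At day 7 they were Myh11 on 1448962_at alone (-1.02) and Synpo2 on 1435399_at (-1.90). The Acta2 probe set is past 2-fold only by a day 3 value below the floor, so its size is not measured. Over all probe sets 0.671%, 1.2% and 1.15% were past 2-fold lower at these days, and 1.17%, 5.09% and 4.75% in either direction. Synpo2 1435399_at, at 826, 397, 279 and 209, was lower at each later time, while its companion 1452879_at, at 223, 145, 169 and 198, was nearest to day 0 at day 7 (-0.16).

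The vessel differences on the highest-mean probe sets were of unlike size. Acta2 on 1416454_s_at stayed within -0.17 of day 0 at every time, and Tagln measured -0.43, -0.0006 and -0.20. Acta2 1444105_at had intensities of 334, 294, 329 and 223 at days 0, 1, 3 and 7, so it was lowest at day 7. Myh11 measured -0.83, -0.87 and -1.02, Myl9 -0.76, -0.34 and -0.59, and Mylk -0.71, -0.42 and -0.29. The other Myh11 and Mylk probe sets did not follow these courses. Myh11 1418122_at had intensities of 89.3, 87.7, 48.7 and 87.7 at days 0, 1, 3 and 7. Mylk 1425505_at had 1681, 1222, 1557 and 1732, and 1425504_at 83.1, 76.3, 73.5 and 106. Cnn1 stood at -0.51, -0.51 and -0.47 and Lmod1 at -0.64, -0.28 and -0.29. Other cell types moved in the same arrays. The summed fibroblast markers (10 of 10 above the floor) measured 35776, 23947, 65937 and 59565 at days 0, 1, 3 and 7, and those of macrophages (7 of 7) 4526, 5317, 13476 and 9655. The adipocyte sum was 73080, 77307, 66491 and 52700, that of endothelium (10 of 10) 3887, 3345, 3230 and 3844, and that of pericytes (8 of 8) 8510, 6607, 9192 and 9334. Neuron markers summed to 2276 at day 3 and to 146 to 274 on the other vessel arrays. The part of these cells in the member differences was not tested.

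**Figure D4:**
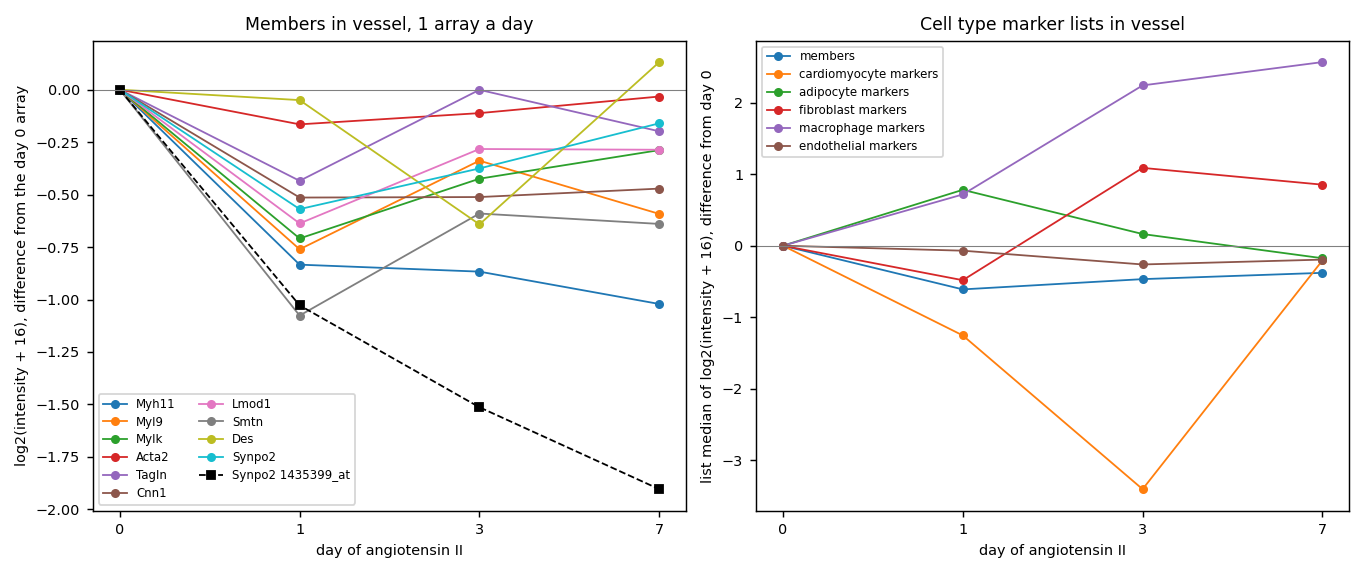
Left, difference of each gene from the vessel array of day 0 on the log2(intensity + 16) scale (highest-mean probe sets, with the second Synpo2 probe set dashed), 1 array a day. Right, the same for the median of the members and of cell type marker lists: the cardiomyocyte median is lowest at day 3 and the macrophage and fibroblast medians are above day 0 at days 3 and 7.

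Genes that mark the synthetic state were higher in these later vessel arrays. Of 11 measured, 7 were past 2-fold higher at day 3 and 8 at day 7, with medians of 1.79 and 1.5, where 3.89% and 3.6% of all probe sets were, and none at day 1. Col8a1, a matrix collagen, stood 2.94 and 3.65 above day 0 at days 3 and 7, S100a4, a calcium-binding protein also made by macrophages and fibroblasts, 2.46 and 2.89, and Thbs1, thrombospondin 1, 1.84 and 3.01. At day 1 Myocd, the myocardin gene, stood at -1.13. Kcnmb1, the smooth muscle subunit of the BK potassium channel, stood at -1.02 and Pdlim3, a protein of the Z-disc and dense body, at -1.17 at day 1 and -1.05 at day 7. Tpm1 (-1.10), Pdlim5 (-1.08), Pln (-1.06) and Lmod2 (-1.01) were also past 2-fold lower at day 1, when the cardiomyocyte sum was 11081 against 20770 at day 0. At day 3, when it was 2144, these 4 and Ldb3 and Atp2a2 stood at -1.90 to -3.20. All 6 are also made in cardiomyocytes. The part of those cells in these differences, and in those of Myocd, Kcnmb1 and Pdlim3, was not tested. Nor was that of fibroblasts and macrophages in the synthetic state genes.

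In heart, where 3 arrays a time allow a test, 4 of the 10 genes passed at day 1 and none at day 3 or day 7. Des and Synpo2 rose, Cnn1 rose and Smtn fell, while Myh11, Acta2, Tagln, Myl9, Mylk and Lmod1 did not pass. Of the 19 probe sets 16 were above the floor often enough to be tested, and 5 passed. Of all 24427 probe sets 11.5% passed at day 1, 4.48% higher and 6.98% lower. At day 3 and day 7, 0.0532% and 0.0368% of all passed. Of the 16 member probe sets, 2 and 1 had an unadjusted p under 0.05 there by limma. Of all 24427 probe sets, 2759 and 2100 did, so both member counts lie near the share of all. The p-values measure the spread between arrays that the labels call biological replicates.

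Des rose from 2486, 2622 and 2382 at day 0 to 4517, 5121 and 3775 at day 1. It then measured 3060.1, 3755 and 3650.4 at day 3 and 2906, 3045 and 3365 at day 7. The rise at day 1 was 0.83 ± 0.12 (limma adjusted p = 0.00244, n = 3 and 3), 1.77-fold, and all arrays of every later time lay above all of day 0. At days 3 and 7 the differences of 0.48 ± 0.12 and 0.31 ± 0.12 did not pass (limma adjusted p = 0.172 and 0.498). The second Des probe set moved alike, from 40.9, 36.3 and 38.3 to 80.3, 90.6 and 52.6 at day 1 (0.71 ± 0.15, limma adjusted p = 0.0110). It lost its call without the second day 0 array (limma adjusted p = 0.0505), the first day 1 array (0.0631) or the second (0.0534). Cardiomyocyte markers had no call at day 1 (0 of 10, median -0.07), and the part of these cells in the rise of Des was not tested.

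Synpo2 rose on 1452879_at, its heart-high probe set, from 979, 915 and 749.6 to 1336, 1473 and 1194 at day 1. This was 0.59 ± 0.12 (limma adjusted p = 0.00846), with no overlap. On 1435399_at the arrays measured 151, 176 and 138 at day 0 and 115, 136 and 131 at day 1, a difference of -0.25 ± 0.13 that did not pass (limma adjusted p = 0.251). With all 4 probe sets averaged the call was lost (0.17, limma adjusted p = 0.202). At day 3 1452879_at was back at 821, 827 and 919.8, below day 1 by 0.63 (SE 0.12, limma adjusted p = 0.0167), where 3.41% of all probe sets passed and 1.31% fell. Against day 7, where 4.18% passed and 1.92% fell, both Des probe sets fell by 0.52 and 0.61 and Synpo2 1452879_at by 0.51 (limma adjusted p = 0.0347, 0.0390 and 0.0317). The fall to day 7 was lost when either of the first 2 day 1 arrays or any day 7 array was left out, and that to day 3 without the first or second day 1 array or the second day 3 array (0 genes in each case).

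Cnn1 rose from 78.2, 79.9 and 50.3 to 133, 136 and 118, by 0.78 ± 0.23 (limma adjusted p = 0.0436). The groups did not overlap, but the call was lost without any of 5 arrays (all but the third of day 1), with limma adjusted p from 0.0812 to 0.150. It was also lost with other added values before log2 (0.0511 and 0.0571), with no filter (0.0846), with genes summarised by averaging (0.0509), with trended and robust variances (0.0505) and with the replicate block (0.0677). It was kept in 4 of 10 other settings. Smtn fell from 169.9, 194 and 153 to 99.2, 112 and 134, by 0.53 (SE 0.13, limma adjusted p = 0.0215). It was lost without the first or second array of day 0 or of day 1 (0.0728 to 0.114). The Smtn call was also lost with only the groups compared, and kept in 9 of 10 other settings. In the test for a change at any time only Des and Synpo2 1452879_at passed (limma F test, adjusted p = 0.0122 and 0.0196, and 0.0361 for the second Des probe set), where 5.72% of all did. Leaving out the first day 1 array ended all of these calls, leaving out the second left 1 gene, and leaving out the first day 3 array gave 4. From day 0 to day 1 macrophage markers rose (3 of 7 called, median 0.72) and fibroblast markers fell (3 of 10, median -0.32). Their part in the changes of the members was not tested.

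**Figure D5:**
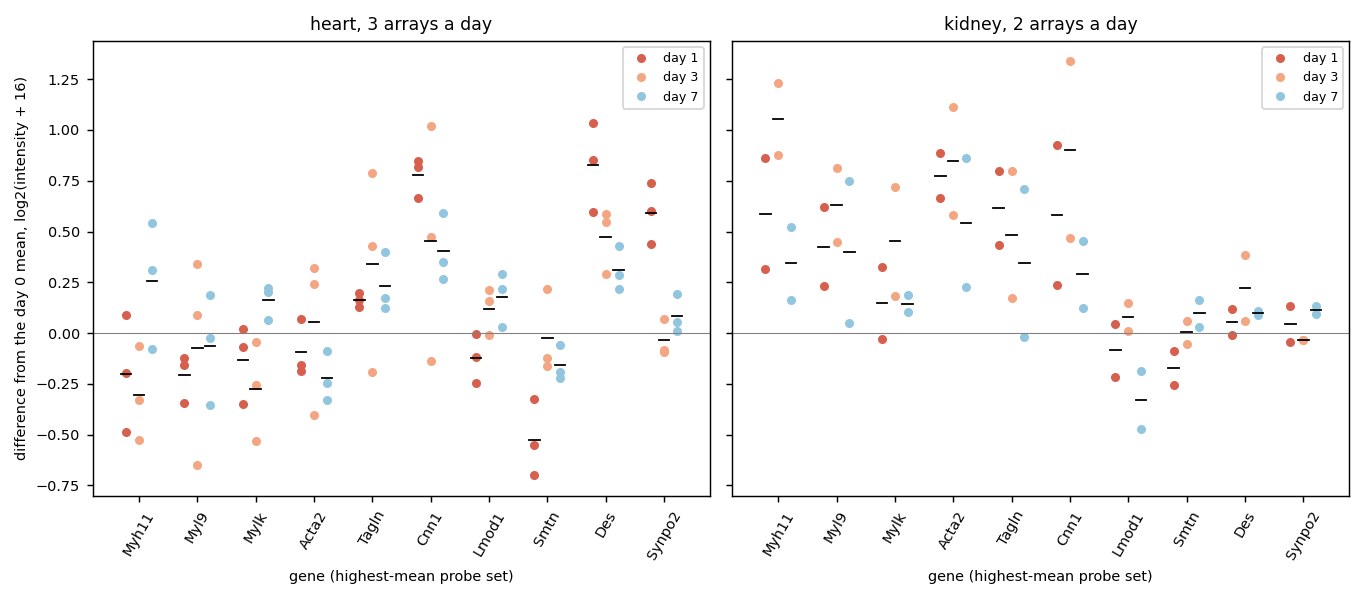
Difference of each array from the mean of the day 0 arrays of its tissue on the log2(intensity + 16) scale, for the highest-mean probe set of each gene in heart (3 arrays a day) and kidney (2 a day); points are arrays and bars are means. In heart Des, Cnn1 and Synpo2 stand above and Smtn below 0 on all day 1 arrays, and in kidney Acta2 stands above 0 on all arrays of days 1, 3 and 7.

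In kidney no member passed at any time. Acta2 measured 1234 and 1321 at day 0, 2372 and 2034 at day 1, 1917 and 2778 at day 3 and 2332 and 1497 at day 7. The differences were 0.78 ± 0.23, 0.85 ± 0.23 and 0.54 ± 0.23 (limma adjusted p = 0.186, 0.468 and 0.713). Myh11 measured 117 and 87.2 at day 0 and 199 and 259 at day 3 (1.05 ± 0.22, limma adjusted p = 0.412). With 2 arrays a time, 0.585% of all probe sets passed at day 1 and 0% at days 3 and 7. Of 14 member probe sets, 2, 6 and 2 had an unadjusted p under 0.05 by limma at days 1, 3 and 7. Of all 24605 probe sets tested, 3818, 2082 and 1712 did, so the day 1 count lies near the share of all. Adipocyte markers summed to 14937 and 16356 on the day 1 arrays and 27871 on the second day 3 array, and to 2069 to 3008 on the other 5. All 6 adrenal cortex markers lay above the floor on the second arrays of day 0 and day 3, with sums of 5839 and 10221 against 184 to 219 elsewhere. The second day 3 array also had the highest median of the members, 0.76 above day 0. The part of these tissues in the kidney values was not tested.

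Whether heart and kidney responded alike was tested as a difference of the differences from day 0. At day 1 Des rose more in heart than in kidney, where it measured 88.0 and 92.4 at day 0 and 99.4 and 89.5 at day 1. The difference was 0.77 ± 0.17 (limma adjusted p = 0.0238) and 0.81 ± 0.20 (0.0406) on its probe sets. It was the 1 gene of 10, where 2.33% of all probe sets passed, 0.765% in this direction. The call was lost without either kidney array of day 0, the second of day 1, the first heart array of day 0, or either of the first 2 heart arrays of day 1 (0 genes), and without both kidney arrays with adrenal markers (0.74, limma adjusted p = 0.0832). Acta2 and Myh11 lay the other way (-0.87 ± 0.35 and -0.79 ± 0.35) and did not pass (limma adjusted p = 0.219 and 0.272). At days 3 and 7 no member passed (0.00722% and 0.0108% of all did). Of 16 member probe sets, 4 and 2 had an unadjusted p under 0.05 by limma, as did 2181 and 1228 of all 27705 tested.

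In brain no member passed at day 3 or day 7. No probe set of all 24685 tested did (0%), and no member had an unadjusted p under 0.05 by limma. Of all probe sets 1855 and 1903 had one. Acta2 measured 589 and 1199 at day 0, 1160 and 969 at day 3 and 1231 and 1354 at day 7, so its day 0 arrays differed more from each other than those of day 3 or day 7. At day 7 its difference was 0.61 ± 0.33 (limma adjusted p = 0.630).

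Around the members, partner genes of the apparatus were taken from lists, and counted with the highest-mean probe set of each gene. Between vessel and heart 25.5% of all probe sets were higher and 24.1% lower, against which each count is to be read. The 5 of 18 transcription factor genes that were higher lie near that share. Of 13 further thin filament genes tested between vessel and heart, 8 were higher in vessel and 3 lower, with a median of 0.55 against -0.01 over all probe sets. Tpm2, beta tropomyosin, was higher by 3.10 ± 0.13, while Lmod2 (-4.97 ± 0.26), Tmod1 (-3.23 ± 0.12) and Tpm1 (-3.14 ± 0.22), a leiomodin and filament proteins also found in cardiac muscle, were lower. Of 22 dense body and adhesion genes 14 were higher and 8 lower (0.54), from Itga8, an integrin of smooth muscle, at 5.07 ± 0.29 to Fhl2 at -5.15 ± 0.12.

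Of 18 transcription factor genes 5 were higher and 8 lower (median -0.23), the lower ones led by Tcf21 (-2.64 ± 0.17), Gata4 (-2.25 ± 0.13) and Srf, the serum response factor itself (-1.34 ± 0.11). Of 16 channel, calcium and receptor genes 6 were higher and 8 lower (-0.14), with Kcnmb1 at 2.37 ± 0.12 and Ptger3, a prostaglandin receptor, at 2.06 ± 0.12 on one side and Pln, phospholamban, at -5.71 ± 0.30 on the other. Of 6 further myosin genes Myh10 was higher (1.23 ± 0.13) and Myh14 (-2.27 ± 0.12) and Myl12a (-0.65 ± 0.09) lower. Of 12 synthetic state genes 4 were higher, among them Fn1, fibronectin (2.11 ± 0.39). In the same comparison 10 of 10 cardiomyocyte markers were lower in vessel (median -4.27), and their part in the lists was not tested.

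At day 1 in heart, some partner genes of the anchors rose with Des (limma adjusted p under 0.05 for each gene named as changed). Over all probe sets 4.48% rose and 6.98% fell, and a share near these is no result about a list. Of 22 dense body and adhesion genes 4 rose and none fell (median 0.26 against -0.02 over all probe sets): Fhl1, a LIM protein, by 1.71 ± 0.18, Actn1, alpha actinin 1, by 1.09 ± 0.28, Itga7, a laminin-binding integrin, by 0.82 ± 0.13 and Vcl, vinculin, by 0.50 ± 0.14. Of 13 thin filament genes Actg1 (0.71 ± 0.16) and Actb (0.46 ± 0.13), the cytoplasmic actins, rose. Myl12a, of the further myosin genes, rose by 0.48 ± 0.10. Among channel, calcium and receptor genes Ednrb (0.45 ± 0.12) rose and Cacna1c (-0.44 ± 0.13) fell. Of 16 transcription factor genes Prrx1 and Foxo4 fell by 0.47 and 0.44, a count near the share of all. Of 11 synthetic state genes 4 rose, S100a4 by 2.13 ± 0.38, Lgals3 by 1.76 ± 0.37, Ereg by 1.32 ± 0.34 and Thbs1 by 0.99 ± 0.26. At day 3 Col8a1 was the gene of these lists that passed (2.01 ± 0.29, limma adjusted p = 0.0357), and at day 7 none did. Fhl1 and Itga7 fell between day 1 and day 7, by 1.47 and 1.05. So did S100a4 (-1.74), while Lmod2 (0.45) and Rgs5 (0.35) rose.

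The mean of the 10 members was also set against other genes. Over all 30 arrays, where tissue makes most of the variation, the nearest of 15829 genes were Ddr2, a collagen receptor kinase (Pearson r = 0.98, Spearman correlation 0.91), Ptgis, prostacyclin synthase (0.98 and 0.94), Ehd2 (0.98 and 0.95) and Mustn1 (0.98 and 0.95). By Pearson r they were followed by Filip1l (0.97), Gpx8, Plcd1, Mrvi1, Fam114a1 and Prelp (0.96 each). Each member is part of that mean, here and in heart, so its r is not comparable with that of other genes. Among the members themselves r ran from 0.98 for Acta2 to 0.61 for Des, 0.62 for Mylk and 0.64 for Synpo2. Within the 12 heart arrays the nearest of 13966 genes were Tada1 (0.91), Sypl (0.89), Slc15a4, Recql and Ccdc6 (0.88 each). There the members stood from 0.90 for Tagln and 0.82 for Cnn1 down to 0.15 for Smtn. These arrays share tissue, time and processing, and the values describe likeness only.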

How the data were processed

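RNA of 4 tissues was measured on 30 arrays in 15 groups by tissue and day, taken from the sample labels. The authors deposited a linear intensity for each probe set and array. The submitters' processing notes name Affymetrix Expression Console. Algorithm and version were not given in the sources used here. Array medians lay close together, so no normalization was added. The number of arrays limits the precision.

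Of the 45101 probe sets, 64 controls were left out, 34945 had a single symbol, 932 several and 9160 none. Values were analysed as log2(intensity + 16). The filter kept probe sets that exceeded their array's 40th percentile on a number of arrays no smaller than the smallest group fitted. Tissue pairs were fitted with tissue and day, times by group means within a tissue, and differences of response jointly in 26 arrays, with limma 3.58.1 (R 4.3.3), Benjamini-Hochberg adjustment over all probe sets tested and a threshold of 0.05. Vessel times were differences between single arrays, given past 2-fold. The members, gene lists, rule for named genes and alternatives were chosen with earlier results of these data known. By that rule, all members with every probe set were named, with up to 4 called genes of each list and the 10 genes nearest to the members over all arrays and 5 in heart. Partner genes were named only for vessel against heart and for the times of heart and vessel.

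The labels tie no replicate number to a shared mouse or batch. In no tissue did deviations from group means correlate over 0.1 for every same-number pair, so the numbers were not used as pairs. Alternatives were added values of 1 and 64, no filter, repeated quantile normalization, genes read by their brightest probe set or by averaging, trended robust variances, a block by replicate number, a joint fit, a fit to only both groups in question, and leaving out each array in turn. Leaving out both kidney arrays with adrenal markers was chosen after seeing the data. The results of 1 further gene list are not reported here. The code was tested on simulated data. Promoters of 250 bases were searched on both strands. Figures used Python 3.11.15, pandas 2.3.3, numpy 2.4.6 and matplotlib 3.10.9.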

Additional observations from a re-analysis of the deposited data

Results flagged for a closer look

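The response of Des at day 1 differed between heart and kidney in the joint fit, by 0.77 on 1426731_at and 0.81 on 1426732_at (difference of log2 changes, limma adjusted p = 0.0238 and 0.0406). On 1426731_at at day 3, all heart arrays and all kidney arrays lay above their day 0 arrays and all brain arrays below. The brain arrays measured 57.6 and 62.2 at day 0 and 54.2 and 54.8 at day 3. Differences of the changes were 0.58 for heart against brain and 0.33 for kidney against brain, and were not tested. Acta2 on 1416454_s_at at day 7 lay above day 0 on all brain arrays and below it on all heart arrays. This difference of 0.83 was not tested. The brain arrays measured 589 and 1199 at day 0 and 1231 and 1354 at day 7. These untested items were picked from the member probe sets for lying fully apart from day 0. With so few arrays a day, groups can lie fully apart by chance. How many of all probe sets do so was not counted, so no difference between tissues is concluded from them.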

How the results depend on the processing

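The number of member genes called stayed within 1.5 times the reported count for all 6 tissue pairs under every alternative run, and at 0 for the times of kidney and brain and for the later responses. The vessel and heart difference of Synpo2 1452879_at turned to 0.0302 with the mean of its probe sets, 2 of which lie the other way. In heart at day 1, 4 genes fell to 2 with the mean of all probe sets, and the change at any day went from 2 to 1. From day 1 to day 3, 1 gene became 2 with quantile normalization, the highest-mean probe set, the mean or the joint fit and 0 with only the groups compared. The reported call there, Synpo2 1452879_at, was itself lost with the mean (limma adjusted p = 0.0654), the joint fit (0.0634) and only the groups compared (0.137). From day 1 to day 7, 2 genes became 1 with no filter, the mean or the joint fit and 0 with only the groups compared. The response at day 1 went from 1 gene to 0 without both kidney arrays with adrenal markers. In vessel, the 2 genes past 2-fold at each time became 0 with 64 added and 1 with either gene summary at day 1, 1 with 64 added and 0 with either gene summary at day 3, and 1 with quantile normalization, 1 with the highest-mean probe set and 0 with the mean at day 7. The cause was not tested. Leaving out 1 array gave 2 to 4 genes in heart at day 1, 0 to 2 at day 3 (2 without the first day 3 array), 0 to 4 at any day, 0 to 3 from day 1 to day 3 and to day 7, 0 to 1 for the response at day 1, 9 to 10 between kidney and brain, and 10 in the other tissue pairs.

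Deviations from the group means were correlated between arrays of the same replicate number. Between times in heart, r was over 0.1 in 2 of 18 pairs (-0.32 to 0.14). In kidney it was in 8 of 12 (-0.09 to 0.21), and in brain in 2 of 6 (-0.64 to 0.46). Between tissues it was in 4 of 8 for heart and kidney (0.03 to 0.20). For heart and brain it was in 2 of 6, and for kidney and brain in 0 of 6. With 2 arrays a group the deviations mirror each other, so first and second arrays of kidney, or of brain, gave the same r between times. Since not every pair passed 0.1, the numbers were not taken as pairing, though kidney leans that way. With the replicate block 3 genes were called in heart at day 1 and 0 for the response at day 1, other counts of calls stayed within 1.5 times, and the single calls named above as lost with it ended. Signals under the 40th percentile, such as 1444105_at and 1441206_at in heart, give bounds only, and the single vessel arrays give no error for a time.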
